A study of Homo sapiens with 20 samples.

Results

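RUNX1 binding along human chromosome 9 was followed in THP-1 cells in which the transcription factor PU.1 was lowered. Of the 26642 merged RUNX1 peaks of the count table, all 1089 on chromosome 9 were taken as members. They were divided at 72.5 Mb into 309 peaks before the split, which take in the short arm and the part around the centromere, and 780 peaks beyond it. The chromosome and the place of the split were chosen from the knockdown-to-control changes of these same libraries. The change on each side, and the peaks that changed, are therefore described and not tested.

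THP-1 is an established line of human acute monocytic leukemia. The study expressed a doxycycline-induced shRNA against PU.1 (knockdown) or a non-targeting shRNA (control) in these cells and performed chromatin immunoprecipitation with sequencing (ChIP-seq) against RUNX1 in 2 batches. In batch 1, 3 libraries were control and 2 knockdown, whereas in batch 2 it was 3 and 4. Of the 20 samples, the other 8 were made with unspecific IgG and were not analysed here. Doxycycline and the shRNA cassette were shared by both groups, and PU.1 itself is not read out by this assay. Each genotype is 1 transduced line, so a difference between the lines that arose apart from PU.1, including the number of copies of a chromosome part, and an effect of the shRNA cannot be told apart.

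PU.1 is an ETS family transcription factor that drives monocyte and granulocyte development and recognises sites with a GGAA core. RUNX1 binds TGTGGT-like sites together with its partner CBFB and shares many myeloid enhancers with PU.1. Chromosome 9 carries MLLT3, which is fused to KMT2A in THP-1, and further genes with known parts in leukemia, such as JAK2, ABL1, NUP214 and NOTCH1.

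The peaks of chromosome 9 had a median width of 879 bp (324 to 3363 bp) and covered 1105 kb. A library held 24498 to 46529 reads in them in controls and 36578 to 67167 in knockdowns, out of 630247 to 1199004 and 938745 to 1719840 reads in all peaks. The median peak received 18 to 47 reads per library, and the median standard error (SE) of a log2 fold change was 0.22. A peak that met the window from 250 bases before to 50 bases after a tabulated RefSeq gene start was counted as at a gene start, which held for 231 peaks (21.2%).

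A single library stood apart. In control 1, 35.2% of the chromosome 9 reads lay in peaks at gene starts, against 27.6% to 29.0% in the other 5 controls and 24.0% to 28.5% in the knockdown libraries. Results on peaks at gene starts are therefore given also without it.

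The following promoter sequences were covered by RUNX1 peaks at gene starts. They belong to genes of the leukemia, immune and autophagy lists whose start lay in a peak that changed beyond its 10 Mb window, that is, after the median change of that window was subtracted. These are all 6 such starts. Those of DOCK8, UBQLN1, CARD9 and TRAF2 were lost with all libraries and also without control 1. That of NOTCH1 was lost and that of SET gained with all libraries, and neither was called without control 1. The window median pools all peaks, and in these windows peaks at gene starts lay lower. Their median log2 fold change was -0.54 at 0 to 10 Mb, against -0.63 for DOCK8 before centring. At 130 to 140 Mb it was -0.31, against -0.32 for CARD9, -0.41 for NOTCH1 and -1.30 for TRAF2. UBQLN1 had -0.23 against -0.10, and SET 0.80 against -0.17. Whether a start changed beyond other starts was not tested. With each of the 12 libraries left out in turn, the call held in 12 fits for TRAF2, 11 for UBQLN1 and 11 for CARD9. It held in 8 fits for DOCK8, 4 for SET and 3 for NOTCH1. With replicate number as covariate, those of TRAF2 and NOTCH1 were called and the others were not. That fit cannot decide these calls, since replicate numbers did not pair the libraries and number 3 joined a batch 1 control to a batch 2 knockdown. The tabulated starts of DOCK8 and TRAF2 lie inside their gene records, and the SET stretch lies inside the record of its neighbour DYNC2I2. Each is the 250 bases upstream of the start in RefSeq (GRCh38.p14), written 5′ to 3′ on the strand of the gene. Capitals mark the letters TGTGGT or ACCACA (the RUNX letters on either strand) and GGAA or TTCC (the ETS core on either strand). These motifs do not overlap where they are marked.

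DOCK8 (chr9:272796-273045, plus strand): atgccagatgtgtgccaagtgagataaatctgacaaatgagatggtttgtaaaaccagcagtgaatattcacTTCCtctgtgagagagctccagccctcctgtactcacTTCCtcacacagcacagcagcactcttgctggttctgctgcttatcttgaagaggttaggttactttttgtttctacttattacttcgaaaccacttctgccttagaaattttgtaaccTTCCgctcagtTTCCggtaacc

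UBQLN1 (chr9:83707959-83708208, minus strand): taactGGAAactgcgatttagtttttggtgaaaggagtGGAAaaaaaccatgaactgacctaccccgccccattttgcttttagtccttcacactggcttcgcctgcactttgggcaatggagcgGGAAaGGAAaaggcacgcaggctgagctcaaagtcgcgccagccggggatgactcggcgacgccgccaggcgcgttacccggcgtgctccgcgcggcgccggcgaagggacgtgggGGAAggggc

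SET (chr9:128683174-128683423, plus strand): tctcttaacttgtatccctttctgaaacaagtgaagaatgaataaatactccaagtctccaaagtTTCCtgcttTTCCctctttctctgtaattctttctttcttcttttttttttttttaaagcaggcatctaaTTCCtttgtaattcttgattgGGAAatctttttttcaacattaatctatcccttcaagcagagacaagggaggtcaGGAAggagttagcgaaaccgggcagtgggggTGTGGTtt

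CARD9 (chr9:136373670-136373919, minus strand): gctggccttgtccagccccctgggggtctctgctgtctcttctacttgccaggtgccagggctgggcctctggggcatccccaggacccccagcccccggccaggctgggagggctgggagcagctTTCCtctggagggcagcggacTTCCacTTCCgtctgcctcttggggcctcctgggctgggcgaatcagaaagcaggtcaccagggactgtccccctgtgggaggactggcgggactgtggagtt

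NOTCH1 (chr9:136546049-136546298, minus strand): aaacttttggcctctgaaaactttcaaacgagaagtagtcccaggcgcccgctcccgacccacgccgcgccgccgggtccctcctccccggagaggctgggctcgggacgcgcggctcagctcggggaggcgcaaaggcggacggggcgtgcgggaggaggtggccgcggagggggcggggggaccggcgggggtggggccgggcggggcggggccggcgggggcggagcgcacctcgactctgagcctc

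TRAF2 (chr9:136886266-136886515, plus strand): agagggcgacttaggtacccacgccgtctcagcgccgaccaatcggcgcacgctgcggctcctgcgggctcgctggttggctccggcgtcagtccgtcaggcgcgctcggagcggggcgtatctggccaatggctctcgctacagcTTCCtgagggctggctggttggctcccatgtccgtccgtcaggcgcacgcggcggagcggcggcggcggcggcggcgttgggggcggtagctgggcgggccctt

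Among these 6 stretches, that of SET alone held the RUNX letters, near its 3′ end. That of NOTCH1 held neither motif, and each of the other 5 held at least 1 ETS core. The RUNX letters stood in 10.98% of 35116 promoters of the genome, in 8.71% of the 1584 of chromosome 9 and in 9.80% of the 347 under a chromosome 9 peak. They stood in 4 of the 12 promoters under a gained peak, SET among them, and in 4 of the 57 under a lost one. Only 9 gained and 36 lost peaks were at gene starts, so some of these promoters share a peak. The promoters were not counted again without control 1. Leaving it out lowered the gained peaks at gene starts from 9 to 6 and the lost ones from 36 to 24. The ETS core was in 92.7% of all promoters and in 90.2% of those of chromosome 9, so its presence in a promoter is common.

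On the whole, RUNX1 peaks before the split were lower in knockdown than in control cells, and those beyond it were not. The median log2 fold change (knockdown over control, DESeq2 with batch as covariate) was -0.14 over the 309 peaks before the split and 0.011 over the 780 beyond it, a difference of 0.15. In batch 1 the medians were -0.14 and 0.011, and in batch 2 they were -0.16 and 0.022. The median over all 26642 peaks of the table was -0.025, so the peaks before the split lay below it and those beyond lay slightly above it.

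The same difference was present in the reads of every library. In controls, 66.7% to 67.3% of the chromosome 9 reads lay beyond the split (median 67.0%, mean 67.0% ± 0.18, SD, n = 6). In knockdowns it was 69.6% to 70.3% (median 70.0%, mean 70.0% ± 0.28, SD, n = 6). The lowest knockdown library lay above the highest control library, and the means differed by 2.99 percentage points in batch 1 and by 3.001 in batch 2. As a share of all in-peak reads, the part before the split fell and the part beyond it rose. Peaks away from gene starts also rose on other chromosomes (median log2 fold change 0.077), so the rise is not particular to this side. Peaks before the split received 1.28% to 1.29% of all in-peak reads in controls and 1.16% to 1.19% in knockdowns, and peaks beyond it 2.57% to 2.65% and 2.70% to 2.74%. The groups overlapped on neither side.

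Whether the batches differed in this respect was then asked. The split was chosen from changes in the libraries of both batches, so agreement between the batches is not independent of that choice. The log2 ratio of reads beyond to reads before the split rose with knockdown by 0.20 in batch 1 and by 0.20 in batch 2. The batches differed by 0.00053, which was within the spread between libraries (two-sided exact permutation test of batch labels within genotype, p = 0.983, 300 arrangements, smallest possible p 0.00333). Peak by peak, 0 of the 1089 peaks had an effect that differed between the batches at an adjusted p under 0.05 (DESeq2, product of genotype and batch, adjusted over all peaks), as over the whole table (0%). At an unadjusted p under 0.05 there were 29 such peaks (2.66%), against 2.51% of all peaks.

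**Figure D1:**
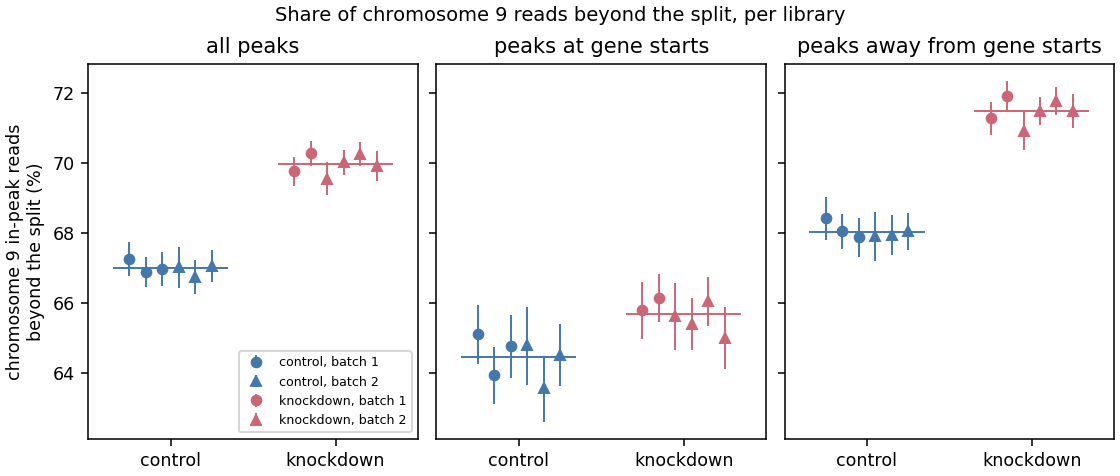
Percent of the chromosome 9 in-peak reads of each library that lay beyond the split, for all peaks, for peaks at gene starts and for peaks away from gene starts. Points are libraries (circles batch 1, triangles batch 2), bars are 95% Wilson intervals that cover counting error only, and lines are group means. The groups stand apart within each batch in all 3 panels. At gene starts they lie closer and meet across batches only through control 1 (65.1%, other controls up to 64.8%, knockdowns from 65.0%).

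Peaks at gene starts and the other peaks differed in how they changed along the chromosome. At gene starts the median log2 fold change was -0.20 before the split (74 peaks) and -0.18 beyond it (157 peaks), a difference of 0.017 (0.0016 in batch 1 and 0.067 in batch 2). Away from gene starts it was -0.10 before (235 peaks) and 0.10 beyond (623 peaks), a difference of 0.20 (0.21 and 0.23). Without control 1 the differences were 0.043 at gene starts and 0.21 elsewhere, and with any 1 library left out they ran from -0.021 to 0.052 and from 0.18 to 0.23. The medians at gene starts were themselves closer to 0 without control 1, at -0.17 before and -0.12 beyond the split. On the other 22 chromosomes with tabulated starts, the medians were -0.18 at gene starts (5199 peaks) and 0.077 elsewhere (18988 peaks). Away from gene starts, chromosome 9 beyond the split was thus near the rest of the genome, and the part before the split lay below it.

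The read shares followed the same order. At gene starts, 63.6% to 65.1% of the reads lay beyond the split in controls (median 64.6%) and 65.0% to 66.2% in knockdowns (median 65.7%). The groups overlapped over both batches and in neither batch alone, with differences of 1.37 percentage points in batch 1 and 1.23 in batch 2. The overlap came from control 1 (65.1%), since the other controls reached at most 64.8%. Away from gene starts it was 67.9% to 68.4% (median 68.0%) and 70.9% to 71.9% (median 71.5%), with no overlap and differences of 3.49 and 3.45 points. The sides differed at each level of binding. In 3 equal bins of mean normalised count, the sides differed by 0.19 in the bin of the lowest counts, by 0.17 in the middle bin and by 0.12 in the bin of the highest counts.

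In windows of 10 Mb the profile was not a single level on each side. Before the split, the 4 windows with at least 20 peaks had medians of -0.17 (0 to 10 Mb, 109 peaks), -0.12 (10 to 20 Mb, 25 peaks), -0.13 (20 to 30 Mb, 28 peaks) and -0.16 (30 to 40 Mb, 117 peaks), and each was negative in both batches. The 7 peaks of 40 to 50 Mb and the 7 of 60 to 70 Mb, on either side of a stretch of 18.4 Mb without peaks, had medians of -0.029 and 0.040. The 16 peaks just before the split had a median of -0.18, with -0.0042 in batch 1 and -0.30 in batch 2. The window just beyond the split (44 peaks) stood at -0.00087.

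Beyond the split the medians were highest at 80 to 90 Mb and 90 to 100 Mb (0.086 and 0.087, over 102 and 123 peaks) and fell again to -0.036 (100 to 110 Mb, 72 peaks) and -0.19 (110 to 120 Mb, 90 peaks). The last of these was as low as any window before the split and was negative in batch 1 (-0.095) and batch 2 (-0.20). It was followed by -0.040 (120 to 130 Mb, 193 peaks) and by 0.081 at the end of the chromosome (156 peaks). That last median lay above the values of both batches, which were -0.028 and 0.015.

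Library by library, the window of 0 to 10 Mb took 0.451% to 0.480% of all in-peak reads in controls (median 0.468%) and 0.405% to 0.431% in knockdowns (median 0.419%). The window of 90 to 100 Mb took 0.397% to 0.409% (median 0.404%) and 0.431% to 0.447% (median 0.443%). In neither window did the groups overlap, and they stood in opposite order. The window of 110 to 120 Mb took 0.284% to 0.312% in controls (median 0.304%) and 0.272% to 0.285% in knockdowns (median 0.277%), with a small overlap.

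**Figure D2:**
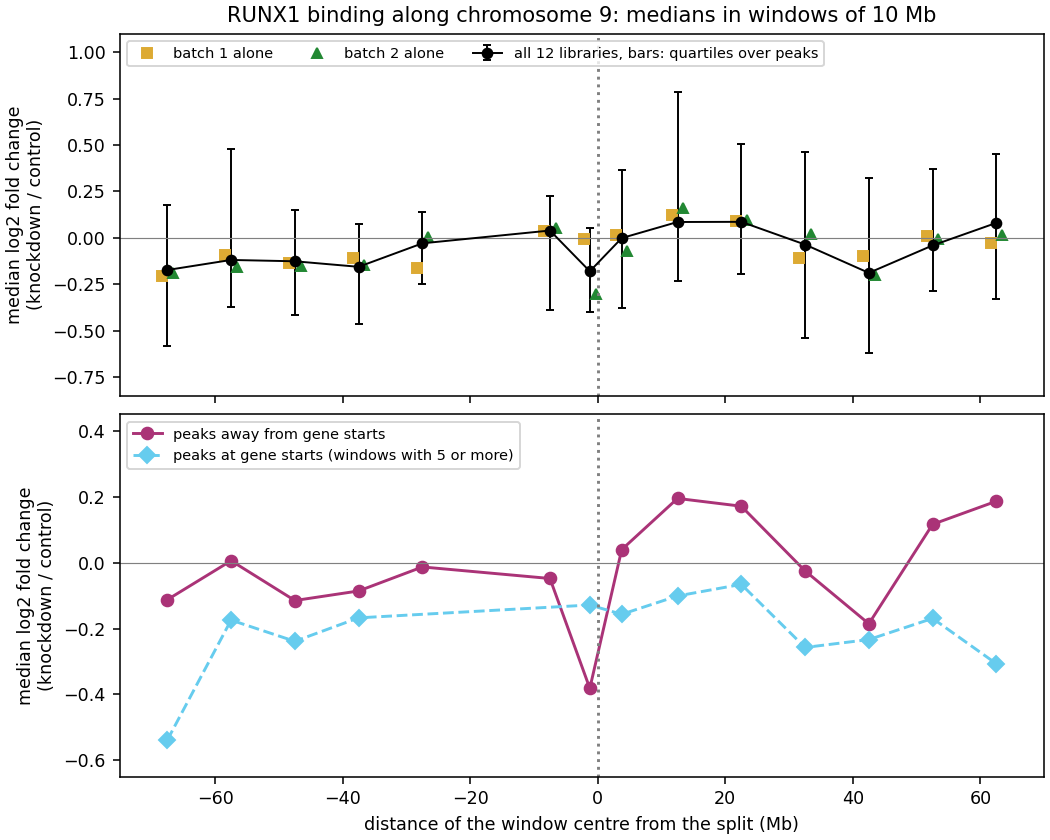
Median log2 fold change (knockdown over control) in windows of 10 Mb, against the distance of the window centre from the split in Mb (dotted line). The upper panel gives all 12 libraries, with bars for the quartiles over peaks, and each batch alone, and the lower panel gives peaks away from gene starts and peaks at gene starts. Medians are negative in the 4 windows with at least 20 peaks before the split. Beyond it the lowest is at 110 to 120 Mb (-0.19). Those at 72.5 to 80 Mb (-0.00087), 100 to 110 Mb (-0.036) and 120 to 130 Mb (-0.040) also lie below 0. Past the split the curve for peaks away from gene starts lies above 0 up to 100 Mb while that for gene starts stays below 0.

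The place of the split was not sharply set by the data. When it was moved along the 10 Mb borders, the difference between the sides was 0.15 at 10 Mb, 0.12 at 20 and 30 Mb, 0.15 at 40 Mb (the largest, 0.154), 0.14 at 80 Mb, 0.077 at 90 Mb and -0.003 at 100 Mb. It rose again to 0.12 at 130 Mb. Over the 23 chromosomes on which such borders left at least 100 peaks on each side, the largest difference in either direction was larger than that of chromosome 9 on 4 others and smaller on 18, with a range from 0.046 to 0.29 (chromosome 11). The last peak before the split lay near TMC1 (chr9:72443202-72443937, log2 fold change -0.39 ± 0.14, SE) and the first one beyond it within TMC1 (chr9:72527296-72527947, 0.52 ± 0.25, SE). TMC1 encodes a mechanotransduction channel of inner ear hair cells.

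Single peaks changed far more than their windows. With batch as covariate, 230 peaks of chromosome 9 were gained and 229 lost at an adjusted p under 0.05 and a fold change over 1.1 (DESeq2), which is 21.12% and 21.03% of its peaks. Of all peaks, 21.3% were gained and 20.7% lost, 42% in all, so the chromosome as a whole was near the background. Before the split 47 were gained and 86 lost, and beyond it 183 and 143. To find peaks that changed beyond their surroundings, the median of the 10 Mb window was subtracted from each log2 fold change (below, the centred change). Windows with fewer than 20 peaks used the median of their side.

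After centring, 246 peaks were gained (22.6%) and 212 lost (19.5%), against 21.7% and 19.2% of the whole table (40.8% in either direction). Of the calls made without centring, 414 were kept in the same direction. Centring dropped 34 losses and 11 gains, and added 27 gains and 17 losses. Before the split the counts became 60 gained and 64 lost, and beyond it 186 and 148. A centred change of more than 2-fold was reached by 100 gained (9.18%) and 86 lost peaks (7.90%), against 9.15% and 7.77% of the whole table. In 303 peaks (27.8%) every knockdown library lay on the same side of every control library of its batch, in both batches, against 28.3% of the whole table. The calls nearest the threshold were a gain within OLFML2A just inside it (adjusted p 0.0494) and a loss near KLF4 just outside it (adjusted p 0.0516, both DESeq2).

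Most peaks called in batch 2 had the same direction in batch 1. In batch 2 alone, 262 peaks of chromosome 9 changed beyond their window (25% of the whole table did), and 258 of them (98.5%) had the same sign in batch 1, against 98.4% over all peaks. Of the 262 peaks, 115 (43.9%) were also called in batch 1 alone, in the same direction, against 39.5% of the 6664 peaks of the whole table called in batch 2. The peaks gained in batch 2 (142) had a median centred log2 change of 1.03 in batch 1, and those lost (120) had -1.21.

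Gained peaks were seldom at gene starts. Of the 246 gained peaks 9 (3.66%) were at a gene start, of the 212 lost peaks 36 (17.0%), and of the 631 others 186 (29.5%). The other chromosomes gave 4.11%, 17.8% and 28.9%. Without control 1 the counts were 6 of 216 gained, 24 of 205 lost and 201 of 668 other peaks, so the share of losses at gene starts fell to 11.7%. The level of the 3 classes in controls follows in part from the call, since a class is defined by the change between the groups. Over all 12 libraries, the median mean normalised count was 27.7 in gained, 27.9 in lost and 32.1 in the other peaks. The median normalised count rose from 17.6 in controls to 38.5 in knockdowns for gained peaks and fell from 36.1 to 20.1 for lost peaks. The other peaks had medians of 34.0 and 30.7. The median width was 773 bp in gained, 844 bp in lost and 961 bp in the other peaks. The median distance to the nearest protein-coding gene start was 40808 bp for gained, 34722 bp for lost and 14090 bp for the other peaks.

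**Figure D3:**
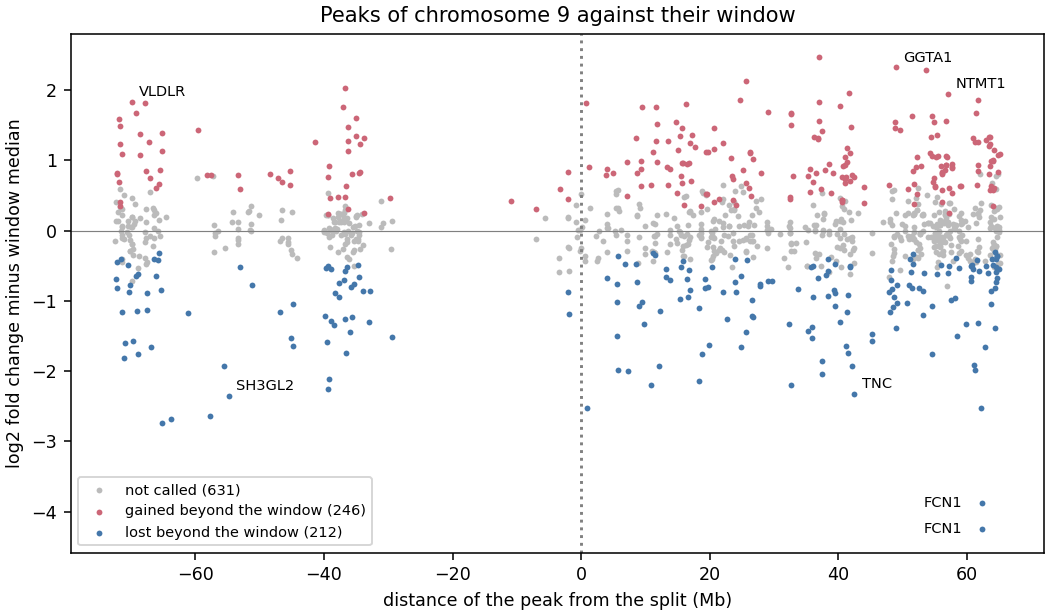
Log2 fold change minus the window median for each of the 1089 peaks of chromosome 9, against distance from the split in Mb (dotted line). Red points are the 246 peaks gained and blue points the 212 lost beyond their window, and grey points were not called. Gains and losses lie side by side along the whole chromosome, and the lowest points are a pair of peaks near FCN1.

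The largest losses and gains were then named by a rule. It took peaks that changed beyond their window, had no less than 30 normalised counts on average and had no overlap between the genotypes in either batch. This left 72 gained and 58 lost peaks, of which the 10 with the largest centred change in each direction are named. Each is named by the protein-coding gene it lies in, otherwise by the gene with the nearest end.

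Of the 10 losses, 8 lay before the split, which held 309 of the 1089 peaks and 64 of the 212 losses beyond their window. The split was chosen from the same contrast, so these counts were not tested. The strongest of the 10 was within SH3GL2, which encodes endophilin A1, a protein that bends membranes in endocytosis (chr9:17669110-17669985). Its normalised counts ran from 39.9 to 63.2 in controls (median 51.5) and from 5.10 to 13.0 in knockdowns (median 10.6). The highest knockdown library lay far below the lowest control library, and the centred log2 change was -2.35 (fitted -2.47 ± 0.24, SE). The peak within TNC, the gene of the matrix glycoprotein tenascin-C, ran from 56.5 to 91.6 in controls (median 72.2) and from 10.8 to 15.2 in knockdowns (median 13.97). It lay beyond the split (chr9:115042902-115043732), in the low window of 110 to 120 Mb, and its centred change was -2.33 (fitted -2.51 ± 0.20, SE).

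The next loss lay 22232 bp from PDCD1LG2, the gene of the PD-1 ligand PD-L2 (chr9:5593514-5594601). Controls held 76.7 to 116 there (median 90.9) and knockdowns 18.3 to 37.3 (median 25.1), with a centred change of -1.66 (fitted -1.83 ± 0.16, SE). Near KLF4, the gene of a factor that promotes monocyte differentiation, a peak 270718 bp away (chr9:107760487-107761377) ran from 48.4 to 65.7 in controls (median 52.9) and from 17.8 to 22.3 in knockdowns (median 19.5). The groups overlapped in none of these 4 peaks. The other 6 losses had centred changes from -1.61 to -1.34. They lay 423442 bp from SMARCA2 (a chromatin remodelling ATPase), 65807 bp from APTX (DNA strand break repair), 12169 bp from KCNV2 (a potassium channel subunit), within MOB3B, 112527 bp from LOC112268044 and within DCAF12 (a substrate receptor of a ubiquitin ligase).

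Of the 10 gains, 2 lay before the split, which held 60 of the 246 gains beyond their window. The strongest of the 10 was within GGTA1 (chr9:121447255-121448045), where controls held 8.43 to 12.9 normalised counts (median 11.3) and knockdowns 50.7 to 66.5 (median 53.3). Its centred log2 change was 2.32 (fitted 2.28 ± 0.24, SE). Within NTMT1, the gene of a methyltransferase of protein N-termini, a peak 3171 bp from the gene start (chr9:129629270-129629960) ran from 11.6 to 20.7 in controls (median 14.8) and from 51.1 to 65.7 in knockdowns (median 59.5). Its centred change was 1.94 (fitted 1.90 ± 0.22, SE).

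The peak with the highest knockdown level among the gains lay 21320 bp from LHX2, the gene of a LIM homeobox factor (chr9:124054621-124055677). It rose from 27.4 to 36.4 in controls (median 34.2) to 91.8 to 111 in knockdowns (median 95.6), and its centred change was 1.62 (fitted 1.58 ± 0.16, SE). Within GSN, which encodes the actin-severing protein gelsolin, a peak at chr9:121320832-121321623 ran from 20.7 to 39.1 in controls (median 32.9) and from 81.6 to 99.8 in knockdowns (median 96.1), with a centred change of 1.54 (fitted 1.504 ± 0.16, SE). These 4 gains also showed no overlap between the groups. The other 6, with centred changes from 1.39 to 1.83, lay 75452 bp from VLDLR (a lipoprotein receptor), 170323 bp from S1PR3 (a sphingosine 1-phosphate receptor), 911 bp from SLC2A8 (a glucose transporter), within WHRN (a scaffold protein), within WNK2 (a kinase) and 40150 bp from KDM4C (a histone demethylase). The nearest gene is a name for a peak and was not shown to be its target. Those near VLDLR and KDM4C were the pair before the split.

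**Figure D4:**
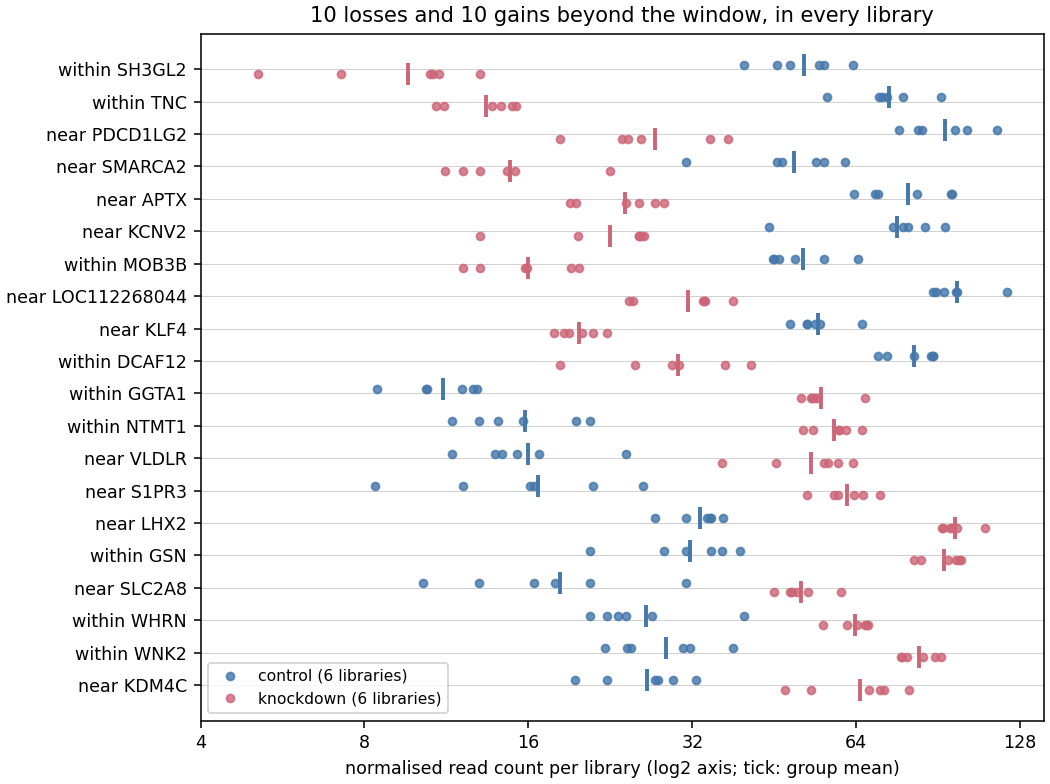
Normalised read counts of the 20 named peaks in each of the 6 control and 6 knockdown libraries, on a log2 axis. Points are libraries and ticks are group means, and in each peak the groups do not overlap, which the naming rule asked for within each batch.

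The genes of chromosome 9 were then read in 4 lists, with a peak assigned to each gene within 50 kb. A gene is counted as gained or lost when at least 1 such peak changed beyond its window, and 1 gene can count as both. Of the 778 protein-coding genes of the chromosome, 644 had a peak in reach, and 41.8% of these had a gained and 47.2% a lost peak. Listed neighbours share peaks, such as FCN1 with FCN2, ORM1 with ORM2, TLN1 with GBA2, GSN with RAB14, and the CCL19, CCL21, CCL27 and IL11RA group. In all, 46 of the 68 listed genes with a peak (67.6%) had at least 1 that changed, against 70.2% of the 644. Of the 201 peaks near listed genes, 74 (36.8%) changed beyond their window, fewer than the 42.1% of the chromosome. Of the 74 changed peaks near listed genes, 44 were called with each library left out in turn and 64 without control 1.

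Among the leukemia and cell fate regulators, 26 of 27 genes had a peak. A gained peak was near 7 (26.9%), a lost peak near 14 (53.8%), and neither near 9, beside the 41.8% and 47.2% above. MLLT3 had a single peak in reach (mean 25.7 ± 6.02 in controls and 28.2 ± 4.82 in knockdowns, SD, n = 6), with overlapping groups and no call. JAK2, the kinase of cytokine receptors, had 3 peaks upstream, of which 2 were lost. That 12367 bp away (chr9:4970764-4972023) ran from 33.8 to 64.3 in controls (median 44.4) and from 21.7 to 25.02 in knockdowns (median 23.5), with no overlap and a centred change of -0.88 (fitted -1.06 ± 0.20, SE). The other, 44661 bp away, had a centred change of -1.14.

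SYK, a tyrosine kinase that acts downstream of Fc receptors, had 3 peaks, and both outer ones were lost. The peak 26467 bp away at chr9:90774533-90775133 ran from 13.0 to 25.1 in controls (median 21.5) and from 3.29 to 7.45 in knockdowns (median 4.86), with a centred change of -2.15 (fitted -2.06 ± 0.34, SE). The peak on the opposite flank had -1.10, with groups that overlapped, and the middle peak -0.07 without a call. At RFX3, a gene of a ciliogenesis factor, 4 of 6 peaks were lost (centred -1.76 to -0.62) and 1 was gained (1.68).

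NOTCH1, which encodes a receptor that directs lymphoid fate, was the listed gene with the most gains. The strongest of its 4 gained peaks lay 40904 bp from the gene (chr9:136586952-136588594), with 45.1 to 80.1 in controls (median 59.7) and 107 to 160 in knockdowns (median 119). The groups did not overlap, and the centred change was 1.001 (fitted 1.08 ± 0.14, SE). The other 3 gains had 0.58, 0.60 and 0.99. The peak at the NOTCH1 start was called lost (centred -0.50) with controls from 48.1 to 130 (median 58.9) and knockdowns from 20.5 to 67.2 (median 49.97). Its highest value was that of control 1, and without this library it was -0.28 and not called. The call held in only 3 of the 12 fits that each left a library out. Near SET, which encodes a phosphatase inhibitor and histone chaperone, 3 of 7 peaks were gained, at centred changes of 0.82, 0.41 and 0.84. The last of these was at the SET start printed above, inside the DYNC2I2 record, and its counts were low, from 0 to 20.01 in controls (median 14.8) and from 16.8 to 32.5 in knockdowns (median 20.98). Without control 1, the gain at the start (0.77) and the weakest one (0.32) were not called. With each library left out in turn, they were called in 4 and 9 of the 12 fits.

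Among the immune and phagocyte genes, 26 of 28 had a peak. Of these, 13 (50%) had a gained and 16 (61.5%) a lost peak, 8 had both and 5 neither, beside the same 41.8% and 47.2%. Several of these genes share a peak, which then counts for each of them. Of the 76 distinct peaks of this list, 14 were gained and 15 lost, 38.2% in all, against 42.1% of the chromosome. The strongest losses of the chromosome were here, near FCN1, the gene of M-ficolin, a lectin of monocytes that recognises microbial sugars. The peak 11087 bp from FCN1 (chr9:134928999-134929892) ran from 14.8 to 40.3 in controls (median 34.9) and from 0.64 to 3.73 in knockdowns (median 1.57). That 18713 bp away (chr9:134936625-134937230) ran from 25.4 to 58.6 (median 40.0) and from 0 to 4.46 (median 3.02). Both were close to empty in every knockdown library. The centred changes were -4.25 (fitted -4.17 ± 0.46, SE) and -3.88 (fitted -3.80 ± 0.38, SE). They fell outside the naming rule above because their mean over all libraries was below 30.

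Other immune genes held gains and losses together. DOCK8, an exchange factor for CDC42 in lymphocyte and dendritic cell movement, had 7 peaks. The gained peak at chr9:221826-222865 ran from 61.1 to 87.9 in controls (median 84.0) and from 106 to 129 in knockdowns (median 124), with a centred change of 0.81. The other gain had 0.82. The peak at the tabulated start, whose sequence is printed above and which lies inside the gene record, had -0.45 (controls 55.8 to 81.0, median 59.4, and knockdowns 31.9 to 61.8, median 42.0), and a further peak had -0.82. Before centring the start peak had -0.63, beside a median of -0.54 at gene starts of its window. VAV2 had 1 loss (-1.99) and 2 gains (1.26 and 1.67) among 7 peaks. ABCA1, the exporter of cellular cholesterol, had 1 loss (-1.33) and 1 gain (0.45) among 4. At the start of CARD9, an adaptor of fungal recognition receptors, the peak had -0.40 and, without control 1, -0.36. Before centring it had -0.32, near the median of -0.31 at gene starts of its window. TLR4, the receptor of lipopolysaccharide, had 2 peaks, at -0.03 and -0.32, and CD274, which encodes PD-L1, had 2 at -0.08 and 0.55. None of these 4 was called beyond its window, but 1 of the TLR4 peaks was called lost before centring.

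Among the autophagy and lysosome genes, 12 of 14 had a peak. A gained peak was near 4 (33.3%) and a lost peak near 5 (41.7%), and 4 had neither, beside the same 41.8% and 47.2%. The list is broad and also holds VLDLR, the lipoprotein receptor gene, and TRAF2, described below. Both count among the genes with a lost peak. The largest gain was within GBA2, which encodes a non-lysosomal glucosylceramidase (chr9:35741661-35742220). It ran from 4.65 to 17.3 in controls (median 7.28) and from 22.6 to 46.9 in knockdowns (median 26.7), without overlap, at a centred change of 2.03 (fitted 1.87 ± 0.32, SE). DAPK1, a kinase of cell death and autophagy, had gains of 0.54 and 1.14 among 5 peaks. UBQLN1, which carries ubiquitinated proteins to degradation, had a gain of 1.12 in its surroundings and -0.32 at its start, where controls ran from 102 to 144 (median 119) and knockdowns from 90.5 to 106 (median 103). The largest loss was a peak within NFX1, 32567 bp from BAG1, a cochaperone of HSP70 (chr9:33297275-33298044). It ran from 21.1 to 39.0 in controls (median 32.5) and from 1.19 to 11.2 in knockdowns (median 6.47), at a centred change of -2.11 (fitted -2.27 ± 0.31, SE). At the tabulated start of TRAF2, an adaptor of tumour necrosis factor receptors, the peak had -1.39 (fitted -1.30 ± 0.33, SE) with controls from 13.96 to 45.5 (median 20.2) and knockdowns from 4.62 to 12.7 (median 9.15), and -1.10 without control 1. A pair of further TRAF2 losses, at the starts of neighbouring genes, were called only after centring, and not without control 1. With each library left out in turn, they were called in 5 and 3 of the 12 fits. C9orf72, VCP, CTSL and TSC1 had peaks and no call.

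The last list held 10 genes of 9p21, the band that carries the cell cycle inhibitors CDKN2A and CDKN2B and the type I interferon genes. Of these, 4 had a peak (DMRTA1, IFNB1, HACD4 and FOCAD), and none of their 5 peaks changed beyond its window (median centred change 0.22). No peak lay within 50 kb of CDKN2A, CDKN2B, MTAP, IFNA1, KLHL9 or ELAVL2. The stretch around CDKN2A without a peak ran from chr9:21253678 to chr9:22446532 (1.19 Mb) and was number 17 by length among the gaps of the chromosome, whose median was 38.3 kb.

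**Figure D5:**
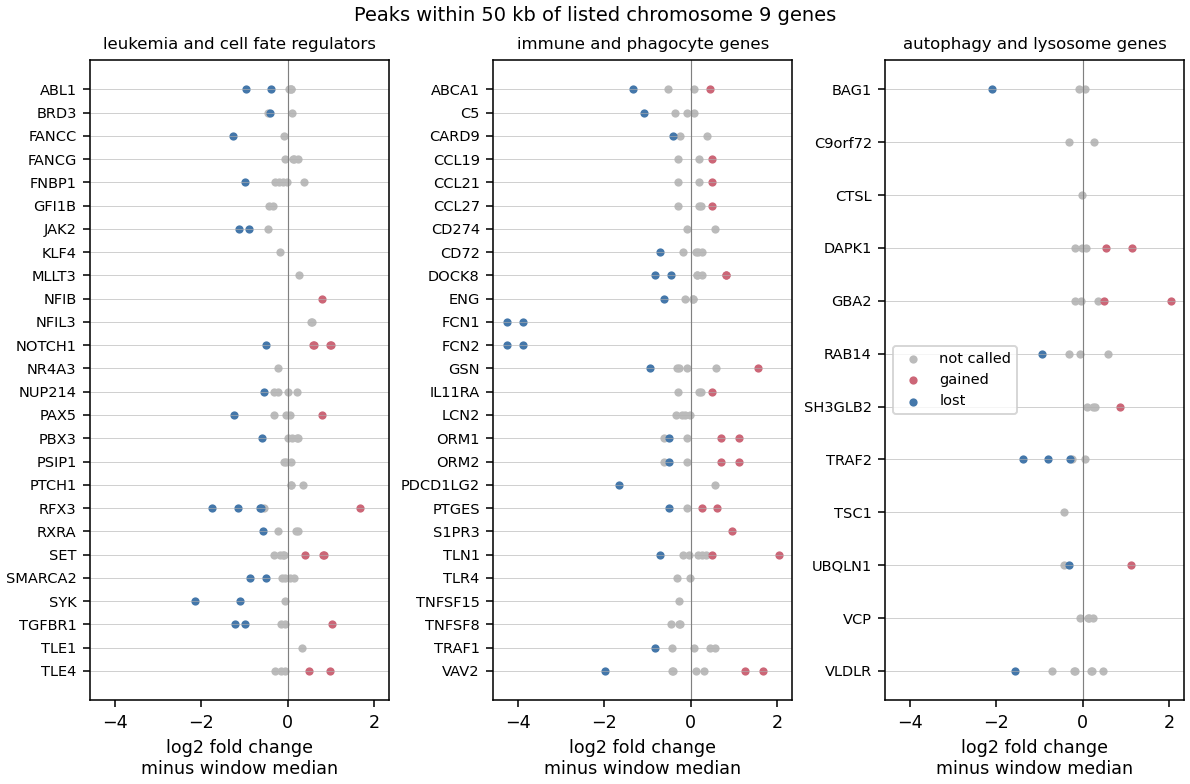
Centred log2 fold change of every peak within 50 kb of the listed leukemia, immune and autophagy genes. Each point is a peak, red for gained, blue for lost and grey for not called beyond the window, and a peak in reach of several listed genes is drawn once for each. Gains and losses occur near the same genes, as at RFX3, DOCK8 and VAV2, and the FCN1 and FCN2 rows show the same pair of peaks near -4.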

How the data were processed

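The data are RUNX1 ChIP-seq counts from THP-1 cells. Per the study's methods and the processing notes in the labels, the authors used Bowtie2 for alignment, discarded duplicate reads and contigs other than the primary chromosomes, called peaks with MACS2 per condition and batch, kept peaks reproducible between batches, merged those of both conditions and counted reads over them with featureCounts. Tool versions were not given in the sources used here. The deposited values are raw read counts per peak and library, beside the width of each peak in bp, a value of another kind that is described and not tested. Since the peaks come from the very libraries under comparison, their choice already depends on it. The methods name the mouse build GRCm38, and the processing notes name it beside GRCh38. Coordinates were taken as GRCh38 because 21.2% of the chromosome 9 peaks met a RefSeq (GRCh38.p14) start window, against 1.38% to 2.94% after shifting all of them. No genome sequence was used here, so exons and introns are not named.

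Counts were fitted with DESeq2 1.42.0 in R 4.3.3, with batch as covariate, over all 26642 peaks. For peaks beyond their window, the window median was subtracted and the Wald test recomputed, with Benjamini-Hochberg adjustment over all peaks. Each table of calls rests on an adjusted p under 0.05 and a fold change over 1.1, as in the study's methods. The centring and the test were tested on simulated data. Fold changes within each batch came from fits of that batch alone. The difference between batches was tested by an exact permutation of libraries. Intervals are 95% Wilson intervals, and in-peak totals stand for depth. The named peaks passed the test beyond their window, had no less than 30 normalised counts on average and had no overlap of genotypes in either batch, and the 10 largest in each direction were taken. For listed genes, peaks within 50 kb were read, and FCN1 and the other listed genes given with values were picked after these were seen.

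The members, the split and the lists were chosen with earlier results of these data known. Replicates are separate immunoprecipitations and libraries of 1 cell line per genotype, so p-values measure only the spread between these. No pair of libraries was a duplicate. Replicate numbers did not pair the libraries, as correlations of same-numbered deviations were -0.10 to 0.012. Replicate 3 was in batch 1 for the control and in batch 2 for the knockdown. Alternatives were edgeR 4.0.16, TMM and other size factors, other covariates, thresholds, filters, windows and depths, and leaving out each library. Leaving out each library for peaks at and away from gene starts was added after seeing the data.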

Additional observations from a re-analysis of the deposited data

Results flagged for a closer look

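In 7 of 52 groups of 6 libraries, 1 library lay far from the others of its group (Dixon's test at the 95% level). Chance flags about 1 in 20 groups, which here is 2.6. Control 1 was flagged for its share of chromosome 9 reads in peaks at gene starts (35.2%, others 27.6% to 29.0%) and for its share of reads beyond the split away from gene starts (68.4%, others 67.9% to 68.1%).

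The other flags concern single named peaks, in normalised counts. The peak near SMARCA2 had 22.6 in knockdown 3 (others 11.2 to 15.1). That near LOC112268044 had 121 in control 3 (others 88.5 to 98.0). The peak within GGTA1 had 66.5 in knockdown 3 (others 50.7 to 54.2), and that near LHX2 had 111 in knockdown 1 (others 91.8 to 97.8). The peak within WHRN had 39.9 in control 4 (others 20.7 to 27.0). In each of these 5 peaks the flagged library stayed on its own group's side of the other group.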

How the results depend on the processing

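The difference between the sides of the split was 0.15 on the log2 scale and positive under every alternative run. It was 0.10 over peaks with at least 10 counts in every library, 0.13 to 0.18 under the other settings, 0.15 with the replicate block, and 0.14 to 0.17 with each library left out. The 459 calls without centring became 219 with that filter (fewer peaks tested), 133 in batch 1 and 276 in batch 2 alone (fewer libraries), 197 at a fold change over 2, 383 with the replicate block, 503 with edgeR, 317 with libraries thinned to the smallest, and 392 to 441 with each library left out. For the 458 peaks beyond their window the same settings gave 214, 130, 262, 186, 372, 495, 320 and 389 to 440. The 46 listed genes with a changed peak became 30 with the filter, 15 in batch 1, 29 in batch 2 and 38 with the replicate block. The replicate block changed no call of the 20 named peaks, and all 475 values of these peaks under the alternatives kept their direction and their side of the threshold. Under the filter of 10 counts this covers 15 of the 20, since the peaks at SH3GL2, GGTA1, NTMT1, VLDLR and S1PR3 did not pass it. The 20 named peaks were picked for large changes without overlap, so this stability was largely given by the naming rule. Of the 74 changed peaks near listed genes, 44 were called with each library left out in turn. The difference between batches ran from -0.017 to 0.018 with each library left out (exact permutation p from 0.46 to 0.98). It was below 0 without control 1 (-0.0066), control 5 (-0.0060), knockdown 1 (-0.017), knockdown 4 (-0.0013) or knockdown 5 (-0.0068). Single peaks are limited by depth: the median peak held 18 reads in the shallowest library.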
